A study of Rattus norvegicus with 415 samples.

Results

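The adipose samples described here are the ends of a ranking by Fos: the Fos-high samples, with the highest level of the gene, and the Fos-low samples, with the lowest, each 25.1% of all samples. They were chosen by ordering every sample on the deposited FPKM of ENSRNOG00000008015, the identifier under which Fos was ranked. FPKM counts a gene's reads relative to its length and to the depth of the library. The Fos-high samples number 7, 50 and 47 in 3 blocks of sample numbers described below, and the Fos-low samples 11, 68 and 25. The other 49.9% of samples, between these ends, served as a second set. All samples came from outbred rats (Rattus norvegicus) aged 17 weeks, and the labels give no treatment, genotype, strain or sex, so that the ends of the ranking are not groups of the study. Outbred rats differ from each other in genotype. The study related the animals' metabolic traits and gene expression to their genotypes. The tissue was snap-frozen after dissection, and RNA of the whole tissue was sequenced. In such bulk samples, fewer cells of a type and less RNA per cell cannot be told apart.

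Fos is the founding member of a family of transcription factors that pair with Jun proteins to form AP-1, a complex that binds DNA at the promoters and enhancers of many genes. It is the classic immediate early gene: its transcription starts within minutes of a growth factor, hormone, nerve or stress signal without any new protein being made, and its messenger RNA is quickly degraded. In tissue taken from an animal, its level therefore depends on what the cells met shortly before they were frozen, handling and dissection included.

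The files list genes by Ensembl identifiers without names, and 0 of the 18358 identifiers could be matched to the table of rat gene names used here. Other immediate early genes, the markers of adipocytes, blood cells, vessels and muscle, and the gene lists drawn up for this tissue could therefore not be looked up. Whether the Fos ranking follows a state of acute stimulation was thus not checked against known genes, and the samples are called Fos-high and Fos-low by their rule alone. The genes named below, by identifier, are the 2 that rose most and the 2 that fell most among those that passed the test.

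Fos varied widely between the samples. Over all samples the lowest value was 1.854 and the highest 101.4 FPKM, around a median of 12.08, and the middle 50% lay from 8.417 to 18.42. The highest sample lay 54.7 times above the lowest. On the log2(FPKM + 1) scale, in which all differences are given here, its standard deviation was 0.81, larger than that of 93.5% of the genes tested, whose median was 0.24. Its mean level was unremarkable, above that of 55.4% of the genes in the table. Fos rested on 8 to 841 reads per sample, with a median of 90, and its variance between samples was 55.2 times what counting error alone gives.

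The Fos-high samples ran from 18.47 to 101.4 FPKM with a median of 25.08, and the Fos-low samples from 1.854 to 8.416 with a median of 6.718. These values chose the samples and are given as a description, without a test. The ends were not separated from the samples between them by any gap. At the lower limit, the last Fos-low sample had 8.4163 FPKM and the next sample 8.4183. At the upper limit, the last sample left out had 18.358 FPKM and the first Fos-high sample 18.475. Both limits cut through a continuous range, so that counting error can move samples across them.

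The upper end held 1 sample far above the rest. The sample with title number 62378 and suffix 4 had 101.4 FPKM on 841 reads, with an exact Poisson 95% interval from 94.65 to 108.5 that covers counting error only. The next 4 samples, from 51.97 to 55.34 FPKM, lay close together. At the lower end, the sample with title number 61172 and suffix 3 had 1.854 FPKM on 14 reads, with an interval from 1.013 to 3.110. The order among the lowest samples was not detectable at this depth, since the next sample, at 2.292 FPKM, had an interval from 1.283 to 3.780.

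**Figure D1:**
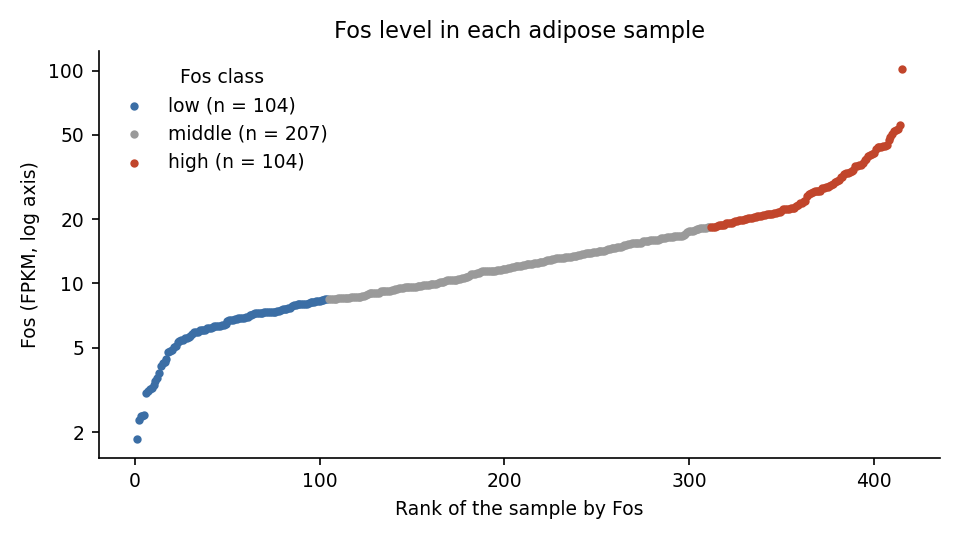
Fos FPKM (log axis) of each adipose sample against its rank; blue, grey and red points are the Fos-low, in-between and Fos-high samples. The values form a continuous curve from 1.854 to 101.4 FPKM, with no gap at either limit and 1 sample far above the others.

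Each sample title holds a number and a suffix, whose meaning the labels do not give. Where nothing says which samples are separate animals, p-values measure the spread between these samples. Gaps above 500 in the title numbers separate 3 blocks, used as possible batches. Block 3 gave 32.6% of its samples to the Fos-high and 17.4% to the Fos-low end, whereas block 2 gave 21.6% and 29.3%. The medians of Fos in blocks 1, 2 and 3 were 10.39, 11.21 and 13.35 FPKM, and in each block the middle 50% of the values overlapped those of the others. Fos rose weakly along the rank of the title number over all samples (Pearson r = 0.143, permutation p = 0.00353; Spearman rho = 0.138, permutation p = 0.00487; r = 0.136 when the 2 samples farthest from the middle of the ranks were dropped). Adjusted over the 4 relations computed, these p-values were 0.0141 and 0.0195. The shuffles treated every sample as separate, although samples of 1 title number share its rank and resembled each other in Fos, as described below. Within single blocks the relation was not detected. Pearson's r was 0.132 in block 1 (permutation p = 0.423), 0.0470 in block 2 (permutation p = 0.474) and -0.140 in block 3 (permutation p = 0.0966), and rho was 0.215, 0.0548 and -0.128 (permutation p = 0.189, 0.407 and 0.127). Dropping the 2 farthest samples of each block gave r of 0.321, 0.0550 and -0.135. The block was a covariate in the comparison of the ends.

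The suffix of the title also went with Fos. Suffix 3 stood on 43 Fos-high and 63 Fos-low samples, and suffix 4 on 51 Fos-high and 26 Fos-low samples (two-sided Fisher's exact test, odds ratio 0.348, p = 0.000927). Suffix 3 stood on 42.2% of all samples, in which Fos had a median of 10.4 FPKM, between 1.85 and 52.7. Suffix 4 stood on 42.9%, with a median of 13.8 FPKM, between 3.14 and 101.4. The ranges overlapped almost completely. The samples with suffix 5 and suffix 6, 35 and 24 in number, had medians of 12 and 10.6 FPKM. On the log2 scale the mean of Fos was 3.95 ± 0.75 (SD) with suffix 4 and 3.63 ± 0.87 with suffix 3, a difference of 0.32 (two-sided permutation test, p = 0.00029, adjusted over 4 comparisons 0.00116). This difference was smaller than the spread within either suffix. It was 0.67 within block 1 (permutation p = 0.0124, adjusted 0.0190), 0.30 within block 2 (permutation p = 0.0143, adjusted 0.0190) and 0.27 within block 3 (permutation p = 0.0520, adjusted 0.0520). The tests of the difference of means were chosen after the counts of suffixes in the classes were seen.

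The same direction was found inside title numbers, in samples that are part of those just compared. This comparison, too, was chosen after the counts of suffixes in the classes were seen. There were 56 title numbers with a sample of each suffix, and in 38 of them the sample with suffix 4 had more Fos. The mean difference was 0.52 ± 1.05 (SD) on the log2 scale (two-sided sign-flip permutation test, p = 0.00036). The gene that rose most with Fos, ENSRNOG00000019422, was higher with suffix 4 in 34 of these 56 numbers, by 0.21 ± 0.68 (permutation p = 0.0225, adjusted over 4 comparisons 0.0449). The next, ENSRNOG00000046667, was higher in 43 of them, by 0.49 ± 0.88 (permutation p = 0.00016, adjusted 0.00064). Both genes were chosen for their rise with Fos, which was itself higher with suffix 4 in these pairs. Their p-values are therefore not separate evidence of a difference between the suffixes. Over all samples of the 2 suffixes, their differences of 0.06 and 0.07 did not pass the test (permutation p = 0.404 and 0.352, adjusted 0.404 for both). What the suffix stands for, and its part in the Fos ranking, was not tested.

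**Figure D2:**
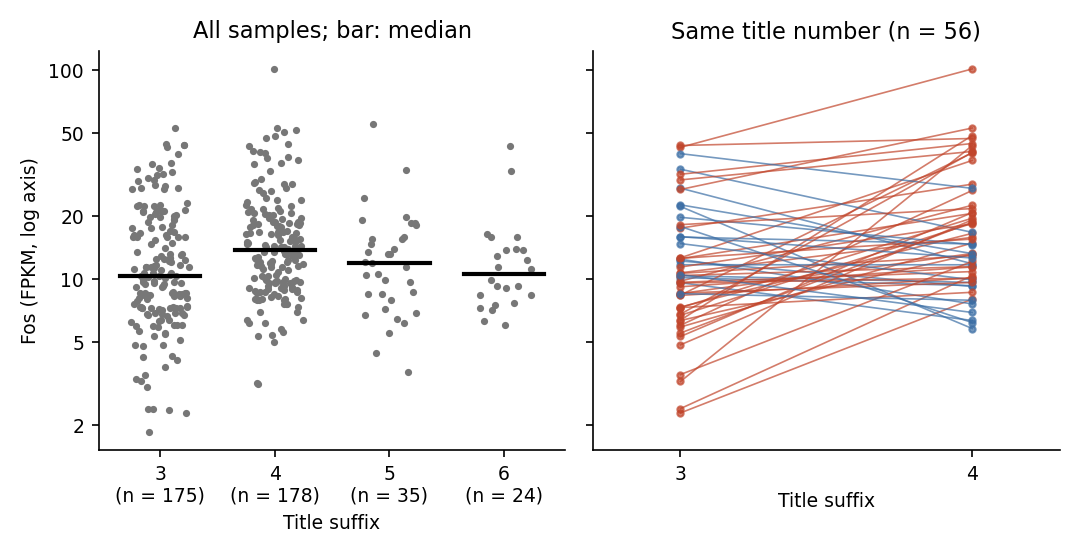
Fos FPKM (log axis) by title suffix. Left, every sample with suffix 3, 4, 5 or 6, with the median as a bar; right, the 56 title numbers that hold a sample of each of suffixes 3 and 4, joined by lines, red where the sample with suffix 4 was higher (38 of 56).

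Samples that share a title number resembled each other in Fos. There were 89 numbers on more than 1 sample, and the resemblance of their pairs of samples, an intraclass correlation that is 1 for equal values and near 0 for unrelated ones, was 0.245 (one-sided permutation test over title numbers, p = 0.00564). With the block means removed it was 0.219 (permutation p = 0.0120). Within blocks 1, 2 and 3 it was 0.194, 0.221 and 0.219, on 9, 49 and 47 pairs, and did not pass the test in any of them (permutation p = 0.257, 0.0568 and 0.0614). The resemblance was loose in the values themselves. In 10 pairs both samples were Fos-high and in 4 pairs both were Fos-low, while 14 pairs joined a Fos-high with a Fos-low sample. The counts that unrelated pairs would give were not computed. The median difference within a pair was 0.68 on the log2 scale, against 0.75 between any 2 samples.

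Reads per sample also moved with Fos. The Fos-high samples had 3363560 to 5974916 reads with a median of 4742922, and the Fos-low samples 2139163 to 5648760 with a median of 4555369. The mean of log2 reads was higher by 0.08 in the Fos-high samples, or 5.44% more reads (two-sided permutation test, p = 0.00629, adjusted over 4 comparisons 0.0252). Within blocks 1, 2 and 3 the difference was 0.10, 0.09 and 0.01 and did not pass the test (permutation p adjusted over the same 4 comparisons 0.352, 0.0788 and 0.835). Of the 12 samples with fewer than 3500000 reads, 6 were Fos-low and 1 was Fos-high.

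Between the ends of the ranking, a few genes rose steeply with Fos and many others differed by little. With limma on log2(FPKM + 1) and the block as covariate, 656 of 16130 genes other than Fos passed an adjusted p of 0.05 (Benjamini-Hochberg), which is 4.07% of the genes tested. Of these, 425 genes (2.63%) were higher in the Fos-high samples and the others (1.43%) were lower. The classes were taken from Fos in the same libraries, so that these calls describe what goes with Fos across samples and not the effect of a treatment. With 1 sample per title number, 430 genes passed, and the lower ones were 0.775% of the genes tested. Without the block covariate 1379 passed. With a slope on Fos over all samples in place of the classes, 1970 genes passed (12.2%), 1020 upward (6.32%) and 950 downward (5.89%).

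Most of the differences were small. The median difference was 0.16 among the higher and -0.09 among the lower genes, against -0.002 over all genes tested. A difference above 0.25 was found in 86 of the higher and 21 of the lower genes, above 0.5 in 14 and 3, and above 1 in 2 and 0. The higher genes were expressed at a lower level than most, with a median of 9.65 FPKM against 15.5 over all genes tested, and varied more between samples, with a median SD of 0.31 against 0.24. The lower genes had a median of 30.9 FPKM and a median SD of 0.18. Both sets had longer gene models than the genes tested, with medians of 2518 and 2845 bp against 2039 bp. These features are descriptions, without a test.

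**Figure D3:**
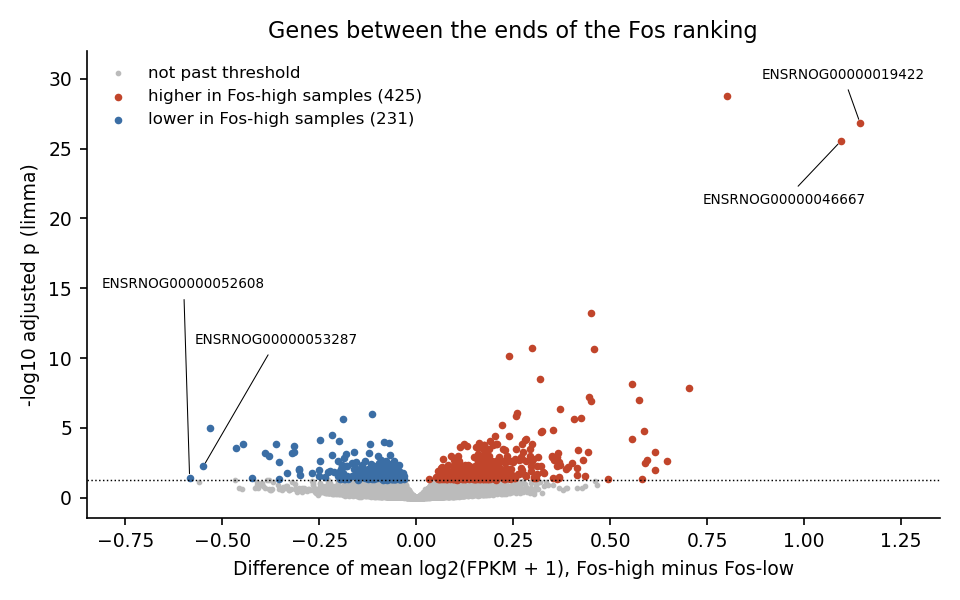
Each point is 1 of 16130 genes, with the difference of mean log2(FPKM + 1) between Fos-high and Fos-low samples on the x axis and -log10 of limma's adjusted p on the y axis; the dotted line is an adjusted p of 0.05. Coloured points are the 425 higher genes and the lower genes that passed, and 3 genes stand apart at the top right, among them both named genes that rose.

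ENSRNOG00000019422 rose most. Its gene model is 3130 bp long and it had 12 ± 7.05 FPKM (SD) over all samples. In the Fos-low samples it ran from 2.94 to 17.4 FPKM with a median of 6.52, and in the Fos-high samples from 3.46 to 43.2 with a median of 18.6. The ranges overlapped at their lower ends, but 0 of the Fos-low samples reached the Fos-high median, and 98 of the Fos-high samples lay above the Fos-low median. The difference was 1.14 (SE 0.08), or 2.21-fold on the log2(FPKM + 1) scale (limma, adjusted p = 1.54e-27). Its medians in 4 bins of the ranking of nearly equal size, from the lowest Fos to the highest, were 6.52, 8.15, 12.1 and 18.6 FPKM. The level thus rose through the bins in between as well as at the ends.

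ENSRNOG00000046667 rose nearly as much on this scale, from a lower level. Its gene model is 3741 bp long, and it had 2.33 ± 2.19 FPKM (SD) over all samples. In the Fos-low samples it ran from 0.112 to 4.84 FPKM with a median of 1.11, and in the Fos-high samples from 0.941 to 22 with a median of 3.46. Among the Fos-low samples 2 lay above the Fos-high median, and 100 of the Fos-high samples lay above the Fos-low median. The difference was 1.09 (SE 0.08), or 2.14-fold on the log2(FPKM + 1) scale, where the added 1 FPKM makes the change of so low a gene look smaller (limma, adjusted p = 2.95e-26). With 0.1 FPKM added in place of 1, its difference was 1.59, against 1.24 for ENSRNOG00000019422. The order of the 2 genes thus depended on the value added. Its medians by bin were 1.11, 1.41, 1.68 and 3.46 FPKM, so that most of the rise lay between the last 2 bins.

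The 2 named genes that fell did so less, and with far more overlap. They do not stand for all lower genes. The gene with the third-largest fall, with a gene model of 1809 bp, differed by -0.53 (SE 0.09; limma, adjusted p = 1e-05). Within blocks 1, 2 and 3 that gene differed by -0.46, -0.44 and -0.71. Of the Fos-high samples, 26 lay above its Fos-low median. ENSRNOG00000052608 has a gene model of 290 bp. It ran from 0.693 to 54 FPKM with a median of 15.2 in the Fos-low samples, and from 0.720 to 51.9 with a median of 5.89 in the Fos-high samples. The 2 ranges were nearly the same, and 34 of the Fos-high samples lay above the Fos-low median. The difference was -0.58 (SE 0.18; limma, adjusted p = 0.0372). Its medians by bin were 15.2, 19.7, 12 and 5.89 FPKM, without a steady fall. The call was lost under 12 alternatives, in several of which the difference was about as large. It was -0.61 with 1 sample per title number (limma, adjusted p = 0.0564), -0.52 with the title number as a random block (0.0733), -0.57 without the samples under 3500000 reads (0.0511) and -0.58 with the suffix as a covariate (0.0533).

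ENSRNOG00000053287, with a still shorter gene model, rested on 2.21 reads per sample. It ran from 0 to 12.1 FPKM with a median of 4.98 in the Fos-low samples, and from 0 to 12 with a median of 3.61 in the Fos-high samples. It was at 0 in 6 Fos-low and 18 Fos-high samples. The difference was -0.55 (SE 0.13; limma, adjusted p = 0.00573). The medians by bin were 4.98, 4.33, 3.89 and 3.61 FPKM, a step of less than the value of 1 read between neighbouring bins.

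**Figure D4:**
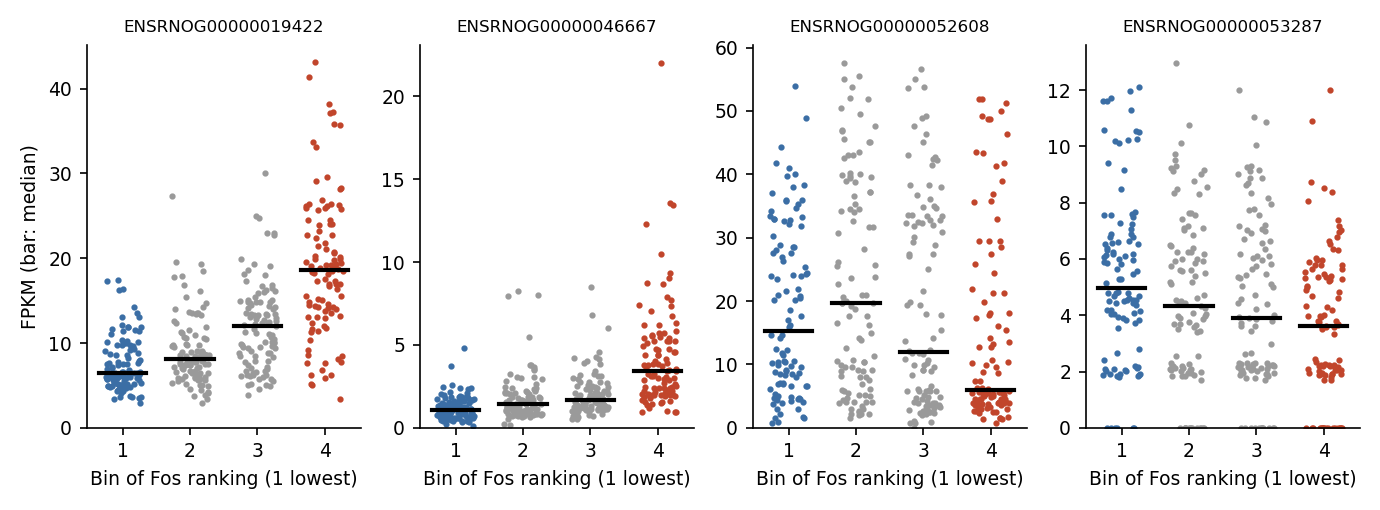
FPKM of the 2 genes that rose most and the 2 that fell most, in 4 bins of the Fos ranking (1 lowest, 4 highest) of nearly equal size, with 1 point per sample and the median as a bar. ENSRNOG00000019422 and ENSRNOG00000046667 rise from left to right, whereas the 2 genes that fell overlap in every bin.

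Of the Fos-high samples, 81 (77.9%) lay above the median of all samples in both ENSRNOG00000019422 and ENSRNOG00000046667, 9 in the first alone, 11 in the second alone and 3 in neither. Since both genes were chosen for their rise in these samples, most Fos-high samples lie above the median in each, and the count does not show that the genes were high together. Of the Fos-low samples, 10 (9.62%) lay above it in both and 69 (66.3%) in neither. In the samples between the ends, 52 (25.1%) lay above in both and 72 (34.8%) in neither. Within the Fos-high samples alone, Pearson's r between the 2 genes was 0.592 and Spearman's rho was 0.614. Within the Fos-low samples r was 0.350 and rho 0.298, and between the ends r was 0.339 and rho 0.316. These coefficients are descriptions over samples that share libraries and depth.

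Few genes followed Fos closely across samples. Over all samples, Pearson's r with Fos had a median of 0.00131 over the 16130 genes, with 5th and 95th percentiles of -0.156 and 0.154. It was above 0.6 in 3 genes, above 0.5 in 4, above 0.4 in 12 and above 0.3 in 34, and the lowest value was -0.373. The highest was 0.683, in the gene with the third-largest rise. ENSRNOG00000019422 followed with r = 0.665 and rho = 0.636, and ENSRNOG00000046667 with r = 0.661 and rho = 0.613. Leaving out the 2 samples farthest from the median of Fos gave r = 0.654 and 0.645. Within blocks 1, 2 and 3, r with Fos was 0.617, 0.636 and 0.706 for the first and 0.640, 0.673 and 0.615 for the second. Among the 10 genes most like Fos, r ran from 0.411 to 0.683, and their gene models were 863 to 3741 bp long. Their levels ran from 2.33 to 61.9 FPKM. These genes also went with each other: r was above 0 in 44 of their 45 pairs, with a median of 0.357, a lowest value of -0.0174 and a highest of 0.771. The 10 genes were chosen for their likeness to Fos in these samples, so that positive coefficients between them are in part a result of the choice. The coefficients carry no test.

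The samples left out of both ends gave a second look at the same genes. Their Fos ran from 8.418 to 18.36 FPKM, a range of 1.04 on the log2 scale, where the means of the ends were 2.01 apart. The slope of each gene on log2(Fos FPKM + 1), with the block as covariate, passed an adjusted p of 0.05 (limma) in 21 of 16130 genes, or 0.13% of them, 15 upward (0.093%) and 6 downward (0.0372%). Of these 21, 12 had also passed between the ends, 9 higher and 3 lower in both. These 12 are 57.1% of the genes called in the samples in between and 1.83% of those called at the ends. With the title number as a random block, 5 genes passed in the samples in between, with a pseudocount of 0.1 or without the filter 4 did, and without the samples under 3500000 reads 49 did. Of these samples, 48 shared a title number with a sample of the ends.

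The direction carried over more widely than the calls. Of the 425 genes higher in the Fos-high samples, 83.1% had an upward slope in the samples in between, and of the lower genes 86.1% had a downward slope. Over all genes tested, 59.3% had the same sign in both. An unadjusted p under 0.05 with the same sign was found in 30.4% of the higher, 28.6% of the lower and 7.41% of all genes tested.

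**Figure D5:**
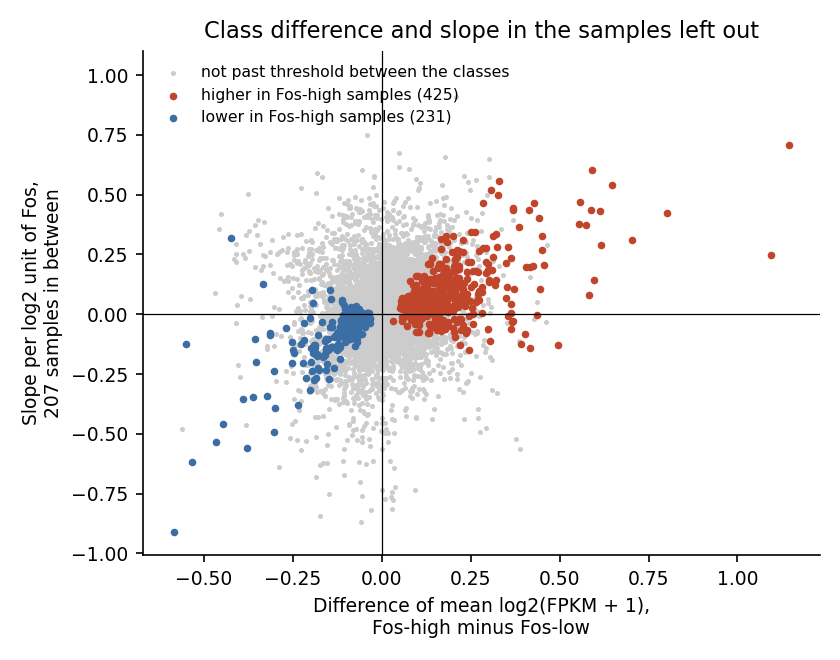
Difference of mean log2(FPKM + 1) between the ends of the Fos ranking (x axis) against the slope per log2 unit of Fos in the samples in between (y axis), 1 point per gene. Of the red points (higher in Fos-high samples) 83.1% lie above 0, and of the blue points (lower) 86.1% lie below 0.

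ENSRNOG00000019422 held in this second set, with a slope of 0.71 (SE 0.12; limma, adjusted p = 0.000194), the smallest adjusted p of any gene there. For ENSRNOG00000046667 the slope was 0.25 (SE 0.12) and did not pass the test (limma, adjusted p = 0.473). ENSRNOG00000052608 had a slope of -0.91 (SE 0.30; limma, adjusted p = 0.213) and ENSRNOG00000053287 one of -0.13 (SE 0.23; limma, adjusted p = 0.943). A slope is given per log2 unit of Fos and is not on the scale of the difference between the ends.

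Samples of 1 title number gave a narrower comparison. The slope on Fos with the title number as a fixed factor compares samples within a number only. It passed an adjusted p of 0.05 (limma) in 53 genes, or 0.329%, with 22 upward (0.136%) and 31 downward (0.192%). Of these 53 genes, 26 had also passed between the ends. ENSRNOG00000019422 had a slope of 0.48 (SE 0.05; limma, adjusted p = 2.90e-10) and ENSRNOG00000046667 one of 0.57 (SE 0.07; limma, adjusted p = 3.81e-09). ENSRNOG00000052608 and ENSRNOG00000053287 had slopes of -0.22 (SE 0.12) and -0.20 (SE 0.14) and did not pass the test (limma, adjusted p = 0.346 and 0.493). Many of these samples are also among the ends of the ranking, so that this is not an independent set. The fit held no term for the suffix, although Fos and both genes that rose were higher with suffix 4 inside title numbers. The part of the suffix in these slopes was not tested.

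No difference of the Fos contrast between the blocks was detected. The interaction of class and block passed an adjusted p of 0.05 (limma) in 0 of 16130 genes (0.0%), and 2.27% of genes had an unadjusted p under 0.05. Within block 1 alone, 0 genes passed (limma) and 687 (4.26%) had an unadjusted p under 0.05. Within block 2, 0.843% of genes passed, and within block 3, 0.093%. In these 2 blocks, 14.7% and 7.07% of genes had an unadjusted p under 0.05. ENSRNOG00000019422 differed by 1.13 (SE 0.23), 1.11 (SE 0.11) and 1.21 (SE 0.15) within blocks 1, 2 and 3, with limma adjusted p-values of 0.330, 1.16e-14 and 9.71e-08. ENSRNOG00000046667 differed by 0.91 (SE 0.18), 1.15 (SE 0.11) and 1.05 (SE 0.15), with adjusted p-values of 0.330, 9.60e-15 and 3.31e-06. For both, the difference in each block was thus close to that over all. The blocks are parts of the samples in which these genes were chosen for their rise, so that this likeness is partly built in. The 2 named genes that fell varied more. Within blocks 1, 2 and 3, ENSRNOG00000052608 differed by -0.08 (SE 0.61), -0.43 (SE 0.22) and -0.99 (SE 0.33), and ENSRNOG00000053287 by -0.15 (SE 0.26), -0.56 (SE 0.19) and -0.64 (SE 0.23). None of these passed the test (limma, adjusted p = 1.0, 0.343 and 0.377 for the first and 1.0, 0.124 and 0.455 for the second).

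With the suffix as a covariate, 571 genes passed between the ends, among them 80.5% of the 425 higher and 77.1% of the lower genes. Within suffix 3, 270 genes passed (1.67%), and within suffix 4, 26 (0.161%). The interaction of class and suffix passed in 0 of 16130 genes (limma). An unadjusted p under 0.05 was found in 1456 genes (9.03%). This fit used only the samples of the ends with suffix 3 or 4. The interaction of class and block, with 2.27%, was a joint test over 3 blocks in all samples of the ends. The 2 shares are therefore not like measures. With log2 reads as a covariate 484 genes passed, and 66.1% of the 425 higher and 56.7% of the lower genes passed again with the same sign. The 2 genes that rose had an r with log2 reads of 0.146 and 0.184 over all samples, against 0.0559 for the median gene. The part of the suffix and of depth in the remaining calls was not tested further.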

How the data were processed

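RNA of 415 rat adipose samples was sequenced, per the labels. The submitters' processing notes name STAR, Picard, featureCounts and DESeq2 without role or version; the genome build and annotation are not given in the sources used here. The deposited table carries no unit. Its values were taken as FPKM, because the deposited values came back as whole reads when multiplied by a gene length and 1 factor per sample (100% whole within 0.001). Reads per sample, recovered this way, ran from 2139163 to 6248214 with a median of 4602134. Depth limits genes with few reads, and counting intervals cover counting error only. The Fos-high and Fos-low samples numbered 104 each and the samples in between 207; suffixes 3 and 4 stood on 175 and 178 samples. A total of 0 columns were unmatched.

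Genes above 1 FPKM in 20% or more of samples were tested (16130 without Fos) as log2(FPKM + 1) with limma 3.58.1 in R 4.3.3 and Benjamini-Hochberg adjustment. Permutation tests drew 100000 resamples in Python 3.11.15 with scipy 1.17.1. The scripts were tested on simulated data. The named genes are those with the largest differences at a mean of at least 1 FPKM, limited to 2 in each direction because the identifiers carry no names. The gene lists were not used for the same reason, and promoter motifs were not analysed here. Fos samples, lists and tests were chosen with earlier results of these data known. Alternatives covered pseudocount, filter, covariates, title numbers, class sizes, scaling, array weights, voom on recovered reads, and single blocks. The suffix fits and those without shallow samples or the highest sample were chosen after seeing the data.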

Additional observations from a re-analysis of the deposited data

How the results depend on the processing

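The 656 genes called between the ends of the Fos ranking (4.07% of genes tested) stayed within 1.5 times under 12 alternatives, among them a pseudocount of 0.1 (641 genes, 633 of them shared with the 656), no filter (631, 606 shared), quantile normalization (635, 484 shared), voom on recovered reads (653, 601 shared), the title number as a random block (626, 589 shared), log2 reads as a covariate (484) and leaving out the sample with the highest Fos (613, 600 shared). Under 12 alternatives that kept both classes and all blocks, 94 genes were higher and 37 lower in every one of them. The calls moved further elsewhere, and the cause was not tested. They are given as percent of the genes tested, in all and then higher and lower. Without the block covariate they were 8.55% (4.53% and 4.02%), with array weights 7.67% (4.53% and 3.14%), and with a slope on Fos over all samples 12.2% (6.32% and 5.89%). A slope on Fos with the title number as a fixed factor, which changed the contrast, the covariate and the samples together, gave 0.329% (0.136% and 0.192%). Ends of the ranking taken within each block gave 2.60% lower genes. Fewer samples were used with 1 sample per title number (2.67%, with 0.775% lower), with the 52 samples at each end (1.16%, with 0.775% and 0.384%), within block 1 (0.0%, with 0.0% and 0.0%), within block 2 (0.843%, with 0.663% and 0.180%), within block 3 (0.0930%, with 0.0744% and 0.0186%), within suffix 3 (1.67%, with 1.25% and 0.428%) and within suffix 4 (0.161%, with 0.149% and 0.0124%). In the samples in between, calls were 0.0248% (0.0248% upward and 0.0% downward) with a pseudocount of 0.1 and without the block covariate, and 0.0218% (0.0218% and 0.0%) with no filter. They were 0.0310% (0.0248% and 0.0062%) with the title number as a random block, and 0.304% (0.192% and 0.112%) without the samples under 3500000 reads. The difference of log2 reads was 0.10, 0.09 and 0.01 within blocks 1, 2 and 3 and passed in none. ENSRNOG00000019422 and ENSRNOG00000046667 passed in every alternative for the ends in which they were tested except within block 1, and ENSRNOG00000046667 was not among the genes above 1 FPKM in 80% of samples. ENSRNOG00000053287 lost its call under 6 alternatives, and its 2.21 reads per sample limit how well the size of its difference is known.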
